A study of Homo sapiens with 6 samples.

Results

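The G1/S and DNA replication genes are a set of 45 genes that proliferating cells transcribe as they pass from G1 into S phase and copy their genome. They were taken by gene symbol from a deposited table of 57232 genes, in which all 45 were found, CENPU under its older symbol MLF1IP. The table holds RNA-seq values from IMR90 cells, a diploid fibroblast line derived from human fetal lung, in 6 libraries. Cells of 3 libraries (vector Rep1, Rep2 and Rep3) carried an empty vector. Cells of the other 3 (ARID1B Rep1, Rep2 and Rep3) expressed a cDNA of ARID1B, a DNA-binding subunit of the SWI/SNF chromatin remodeling complex. Both groups were at passage 13, were infected on day 0, were kept in puromycin until day 4 and were harvested on day 6. The study used ectopic ARID1B to ask about senescence, a lasting exit from the cell cycle, so the comparison addresses how the RNAs of genome duplication stood once ARID1B was raised. In other assays of IMR90 cells with ectopic ARID1B, the study reported arrested growth, senescence-associated β-galactosidase activity and less BrdU incorporation. From gene set analysis of its expression profiles, it reported an association of ARID1B with signatures of senescence and cell cycle arrest. Those profiles were RNA-seq of vector and ARID1B cells, the comparison read here, so that report is not separate from the values below. The cDNA was expressed in 1 cell line only, and the study describes the libraries of a group as biological replicates.

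At the end of mitosis and in G1, the MCM2–7 helicase is loaded onto replication origins by the origin recognition complex together with CDC6 and CDT1. Cyclin E and its kinase then help to relieve RB-family repression of E2F transcription factors. E2F factors drive transcription of the helicase, the polymerases, the sliding clamp and much of the S phase checkpoint. In fibroblasts that leave the cell cycle, as in senescence, RNAs of this program are known to fall, which makes them a common readout of how many cells of a culture are cycling. In RNA from a whole culture, however, fewer cycling cells and less RNA per cell cannot be told apart.

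Values were in FPKM, which divides the fragments of a gene by its length in kilobases and by the library total. The steps between low values gave library totals of 63386813 to 91924514 reads or fragments. ARID1B itself stood at 2.29, 1.31 and 2.05 FPKM in vector Rep1, Rep2 and Rep3 and at 32.5, 21.03 and 28.3 FPKM in ARID1B Rep1, Rep2 and Rep3. The groups did not overlap and stood as labelled (log2 change 3.29, standard error (SE) 0.21, limma adjusted p = 0.0255), although reads of the cDNA and of the resident gene are counted together. Vector Rep2 stood apart from every other library, scoring 48.5 on the first principal component (63.8% of the variance) against -20.0 to 3.63 for the other 5. In both groups Rep3 lay near a mixture of Rep1 and Rep2, with 82.5% of Rep1 for the vector and 65.9% of Rep1 for ARID1B, and it lay between them for 41 and 34 of the 45 members (85% and 69.2% of all genes tested). The members followed this mixture with a median gap of 3.27% and 5.05%, and all genes tested with one of 2.92% and 4.07%. If Rep3 were not an independent sample in either group, the standard errors given here would be too small. Of 12 lung fibroblast markers 11 averaged 1 FPKM or more, and their summed level was 2345 to 3206 FPKM in vector and 2228 to 3252 FPKM in ARID1B libraries. The lowest vector sum was that of vector Rep2. All of these markers except VIM and THY1 were lower in vector Rep2 than in both other vector libraries. In vector Rep1, Rep2 and Rep3, COL3A1 stood at 282, 38.3 and 243 FPKM, LUM at 42.4, 4.21 and 33.0 FPKM, and VIM at 564, 846 and 622 FPKM. Endothelial markers summed to at most 0.430 FPKM and blood cell markers to at most 0.0739 FPKM in any library, with CDH5 and CD3E at 0. Epithelial markers summed to 4.79 to 15.8 FPKM in vector and 4.17 to 6.39 FPKM in ARID1B libraries, with KRT19 the only 1 of 7 to average 1 FPKM or more over the 6 libraries, CLDN4 at 1.29 FPKM in vector Rep2 and at most 0.377 FPKM in the others, and KRT5, SFTPC and SCGB1A1 at 0. The highest epithelial sum was that of vector Rep2, and its part in the results was not tested. Smooth muscle markers summed to 74.4 to 129 FPKM and 122 to 129 FPKM.

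Because E2F factors bind short GC-rich elements near the start of many of these genes, promoters were read for 4 forms of that element, TTTGGCGC, TTTCGCGC, TTTCCCGC and TTTGCCGC, on both strands. The windows ran from 250 bases before to 50 bases after each RefSeq start (GRCh38.p14), and 36 members had an entry. Of these 36 members, 23 (63.9%) held at least 1 of the forms, as did 3.31% of all 35116 promoters and 6.86% of the 7535 genes tested that had an entry. CCAAT, the box bound by NF-Y and common in cell cycle promoters, was found on either strand in 26 of the 36 (72.2%), beside 34.6% of all promoters and 43.3% of genes tested. No entry was found for ATAD2, CCNE2, DSCC1, E2F8, MCM4, MCM5, POLD3, RPA2 and WDR76. The stretches below hold the letters in capitals and are shown 5′ to 3′ on the strand of the gene. The members shown were picked by hand and not by a rule on their values. The first 6 are members that were highest in vector Rep2, and POLA1 and CASP8AP2 are members that were not. MCM6 carries the letters in a pair of stretches, in each of which TTTGGCGC overlaps the reverse complement of TTTCGCGC. MCM7 also held TTTCGCGC, with its first base at position -9 from the start, outside the stretch shown. A match describes letters only and is not a measured binding site.
E2F1 (chr20:33686386-33686445, minus strand): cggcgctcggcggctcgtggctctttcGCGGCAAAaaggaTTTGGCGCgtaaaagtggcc
MCM6 (chr2:135876514-135876603, minus strand): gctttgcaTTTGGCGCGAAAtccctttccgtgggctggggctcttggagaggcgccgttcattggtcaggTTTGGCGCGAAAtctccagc
MCM7 (chr7:100101551-100101610, minus strand): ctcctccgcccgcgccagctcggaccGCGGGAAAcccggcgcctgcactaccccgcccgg
CDT1 (chr16:88803728-88803787, plus strand): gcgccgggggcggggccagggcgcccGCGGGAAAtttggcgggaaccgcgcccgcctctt
GMNN (chr6:24775307-24775366, plus strand): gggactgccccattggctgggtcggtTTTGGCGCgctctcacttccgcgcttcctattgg
PCNA (chr20:5126648-5126707, minus strand): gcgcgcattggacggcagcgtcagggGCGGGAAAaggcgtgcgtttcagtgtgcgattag
POLA1 (chrX:24693755-24693814, plus strand): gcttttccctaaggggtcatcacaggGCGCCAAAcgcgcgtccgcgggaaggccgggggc
CASP8AP2 (chr6:89829705-89829764, plus strand): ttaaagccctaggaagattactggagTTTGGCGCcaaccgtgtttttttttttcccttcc

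For 39 of the 45 members, the log2 range over the 3 vector libraries was wider than the log2 change between the groups, as for 35 of the 40 that were tested and 81.7% of all genes tested. Vector Rep2 held the highest value of the 6 libraries for 30 members, beside 39.5% of all genes tested, and vector Rep1 the lowest for 30 members, beside 17.4%. The remaining 15 members peaked in ARID1B Rep1 (8 members, beside 12.1% of all genes) or ARID1B Rep3 (7 members, beside 9.73%), and ARID1B Rep2 was the lowest library for 10 (27.6%). Vector Rep2 was above both other vector libraries for 43 members (48.9% of all genes tested), and its median ratio to the mean of Rep1 and Rep3 was 1.95 over the members and 1.01 over all genes tested. It was at least 2 times that mean for 22 of the 45 members, or 20 of the 40 that were tested, beside 6.7% of all genes. Within the ARID1B group the pattern ran the other way by number, and ARID1B Rep2 was below both other libraries for 44 members (55.2% of all genes tested). ARID1B Rep1 exceeded ARID1B Rep2 at a median ratio of 1.57, beside 1.07 over all genes. Summed over the 45 members, reads per 1000000 of the library total (RPM) were 808, 1641 and 918 in vector Rep1, Rep2 and Rep3 and 1344, 906 and 1243 in ARID1B Rep1, Rep2 and Rep3. The group ranges of this sum overlapped, since vector Rep2 exceeded every ARID1B library.

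**Figure D1:**
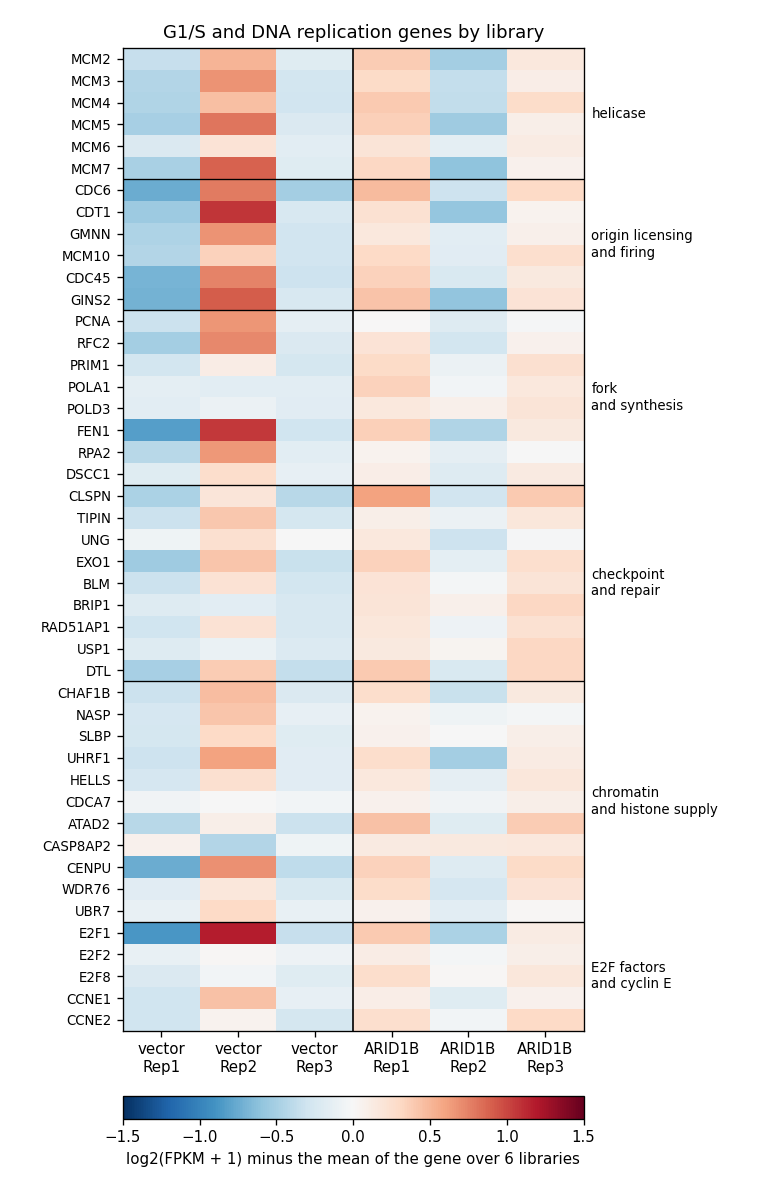
Level of each of the 45 members in each library, as log2(FPKM + 1) minus the mean of that gene over the 6 libraries (color), with members grouped by role and the vector libraries left of the vertical line. Vector Rep2 is the highest library for 30 members and vector Rep1 the lowest for 30, while BRIP1, USP1, POLA1, POLD3 and CASP8AP2 are higher in all 3 ARID1B libraries than in any vector library.

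The test of ARID1B against vector was limma with a variance trend on log2(FPKM + 1), a scale on which changes of weakly expressed genes are understated, over the 10416 genes that averaged 1 FPKM or more. Of the 45 members, 40 passed this filter, and E2F2, E2F8, BLM, RAD51AP1 and CCNE2 did not. No member passed an adjusted p of 0.05 in limma, higher or lower, beside 0.0288% of all genes higher and 0% lower. With an unadjusted p under 0.05 there were 4 members higher (BRIP1, POLD3, USP1 and POLA1) and 0 lower, beside 4.64% and 5.94% of all genes. On the recovered reads, limma's voom also called 0 members, with 4 at an unadjusted p under 0.05. The log2 change was positive for 30 and negative for 10 of the 40 members, with a median of 0.08 and a range from -0.19 (CDT1) to 0.47 (CLSPN), beside a median of -0.02 and 47.6% positive over all genes. Groups did not overlap for 5 members, all higher with ARID1B (9.44% of all genes), and for 0 lower (11.1%). With 3 libraries against 3, an exact permutation test of a single gene could not fall below p = 0.1.

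These counts depended on which libraries were kept. Without vector Rep2, 39 of the 40 members had a positive log2 change (47.8% of all genes), UNG being the exception at -0.02. The median rose to 0.32, beside -0.01 over all genes. Groups then did not overlap for 21 members, all higher with ARID1B (18.8% of all genes). At an unadjusted p under 0.05 there were 15 members, all higher (10% of all genes), but 0 passed the adjusted threshold of limma (1.2% of all genes higher, 1.91% lower), the smallest adjusted p being 0.0758 for BRIP1. Without vector Rep1 the signs split into 17 positive and 23 negative, with a median of -0.03. Without ARID1B Rep2, 37 of the 40 were positive (50.1% of all genes) and groups did not overlap for 10 (16.8%), with a median of 0.25. Leaving out vector Rep3, ARID1B Rep1 or ARID1B Rep3 left 21, 21 and 22 positive. With both Rep3 left out, 20 were positive and 20 negative, with a median of -0.02, beside -0.02 over all genes. No library was set aside in the values that follow unless this is stated.

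**Figure D2:**
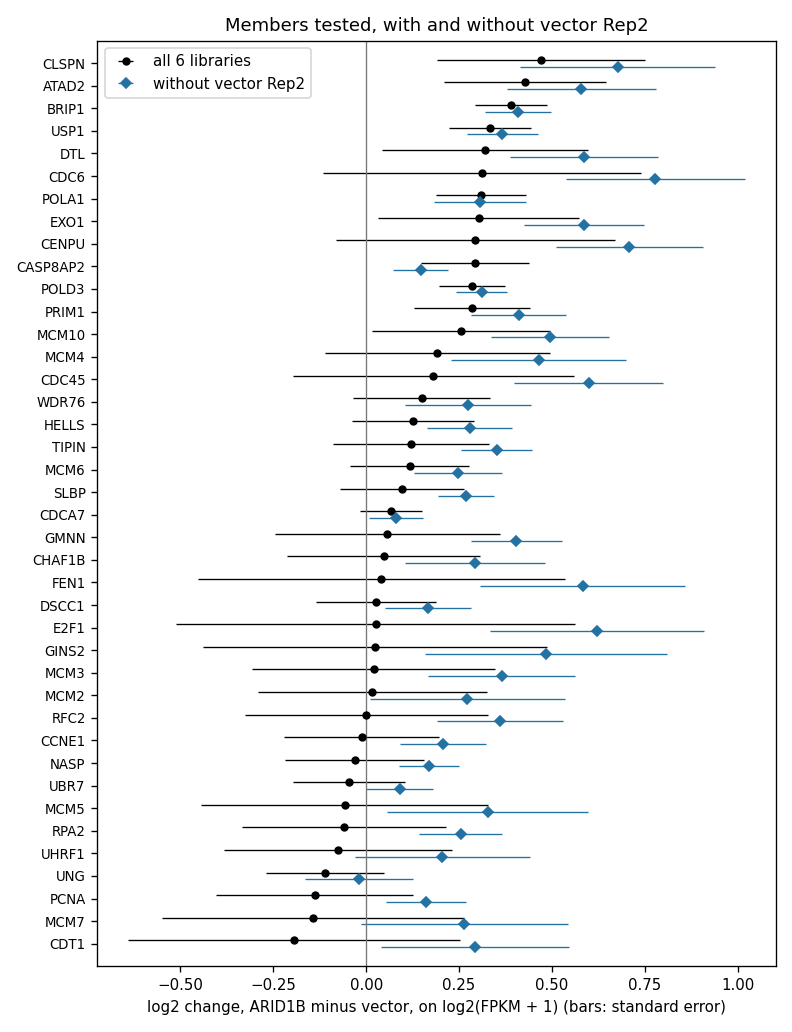
Log2 change of ARID1B minus vector on log2(FPKM + 1) for the 40 members tested (points), with the standard error from limma (bars), using all 6 libraries (black circles) or leaving out vector Rep2 (blue diamonds). With all libraries 30 members lie above 0 and 10 below, and without vector Rep2 only UNG lies below 0.

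The helicase genes MCM2 to MCM7 encode the 6 subunits of the ring that unwinds DNA at the fork. All 6 were highest in vector Rep2. Their summed RPM were 216, 490 and 253 in the vector libraries and 390, 215 and 339 in the ARID1B libraries, in the order Rep1, Rep2 and Rep3. The 2 lowest libraries, vector Rep1 and ARID1B Rep2, thus stood side by side and came from different groups. MCM6 had the highest FPKM of the 6, at 9.07, 12.5 and 9.51 in vector and 12.4, 9.61 and 11.8 in ARID1B libraries. Its ARID1B libraries lay between vector Rep3 and vector Rep2 (log2 change 0.12, SE 0.16, limma adjusted p = 0.802). MCM7 varied most, at 5.21, 15.1 and 6.66 FPKM in vector and 9.84, 4.74 and 8.13 FPKM in ARID1B libraries. Both the highest and the lowest of these 6 values were Rep2 values (log2 change -0.14, SE 0.41, limma adjusted p = 0.903). MCM2 stood at 3.33, 6.79 and 3.83 FPKM with the vector and at 6.13, 2.87 and 5.11 FPKM with ARID1B. Its group means, 4.65 ± 1.87 and 4.71 ± 1.67 FPKM (SD, n = 3), differed by far less than either SD (log2 change 0.02, SE 0.31). MCM4 stood at 3.91, 8.17 and 4.49 FPKM with the vector and at 7.78, 4.18 and 7.08 FPKM with ARID1B, so that the vector libraries enclosed the ARID1B libraries (log2 change 0.19, SE 0.30). MCM3 and MCM5 lay between 2.16 and 14.9 FPKM over all libraries with log2 changes of 0.02 and -0.06. Without vector Rep2 all 6 changes were positive, with a median of 0.30, and MCM6 was the only one whose groups did not overlap (18.8% of all genes higher).

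The genes of origin licensing and firing varied widely between libraries of a group. Summed RPM were 38.3, 142 and 52.2 in vector and 98.9, 53.0 and 86.6 in ARID1B libraries. All 6 were highest in vector Rep2, at a median ratio of 3.36 to the mean of Rep1 and Rep3. CDC6, the ATPase that recruits the helicase with CDT1, stood at 1.88, 7.25 and 2.38 FPKM in vector and at 5.67, 2.88 and 4.92 FPKM in ARID1B libraries. Every ARID1B library was above vector Rep1 and Rep3 and below vector Rep2. Its log2 change was 0.31 (SE 0.43, limma adjusted p = 0.803) with all libraries and 0.78 (SE 0.24, limma adjusted p = 0.134) without vector Rep2, the highest of the 40 members in that fit. CDT1, which escorts the helicase to origins, stood at 1.32, 6.08 and 1.86 FPKM in vector and at 2.95, 1.26 and 2.503 FPKM in ARID1B libraries. Here the highest and the lowest library were again both Rep2, and the change was -0.19 (SE 0.45) with all libraries and 0.29 (SE 0.25) without vector Rep2. GMNN encodes geminin, the inhibitor of CDT1. It stood at 3.13, 8.06 and 3.68 FPKM with the vector and at 5.38, 4.11 and 5.03 FPKM with ARID1B. All 3 ARID1B values lay above vector Rep1 and Rep3 and below vector Rep2 (log2 change 0.06, SE 0.30, and 0.40, SE 0.12, without vector Rep2). MCM10, a factor that helps the loaded helicase start to unwind, stood at 0.479, 1.57 and 0.647 FPKM with the vector and at 1.49, 0.787 and 1.40 FPKM with ARID1B. Its order of libraries was that of CDC6 (log2 change 0.26, SE 0.24, limma adjusted p = 0.729). CDC45 and GINS2, which join the MCM ring to form the active helicase, had log2 changes of 0.18 and 0.02 and were 3.77 and 3.32 times higher in vector Rep2 than in the mean of Rep1 and Rep3.

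**Figure D3:**
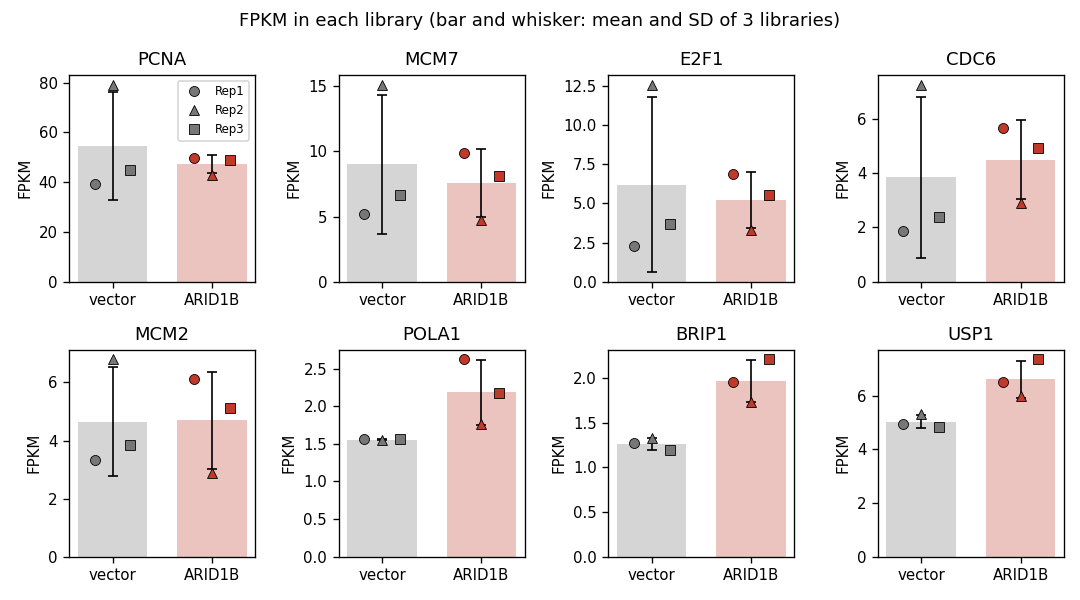
FPKM of 8 members in each library (symbols by replicate number), with the mean of each group (bar) and its SD over 3 libraries (whisker). PCNA, MCM7, E2F1, CDC6 and MCM2 are highest in vector Rep2, whereas the vector libraries of POLA1, BRIP1 and USP1 lie close together and below all 3 ARID1B libraries.

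Among genes of the fork and of DNA synthesis, PCNA was the most abundant of the 45 members. It encodes the sliding clamp that holds polymerases on DNA. Its levels were 39.4, 79.2 and 44.9 FPKM in vector and 49.9, 43.0 and 48.8 FPKM in ARID1B libraries. The ARID1B libraries lay within a narrow span below vector Rep2, and 2 of them were above both vector Rep1 and Rep3 (log2 change -0.14, SE 0.27, limma adjusted p = 0.851). FEN1, the nuclease that trims Okazaki fragments, stood at 4.06, 17.7 and 6.27 FPKM with the vector and at 10.5, 5.58 and 8.94 FPKM with ARID1B. The vector libraries enclosed all ARID1B values (log2 change 0.04, SE 0.49).

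A pair of polymerase subunits differed from this pattern. POLA1, the catalytic subunit of polymerase alpha, which starts each new strand, stood at 1.57, 1.55 and 1.56 FPKM in vector and at 2.63, 1.76 and 2.18 FPKM in ARID1B libraries. The vector libraries were nearly level, Rep2 included, and all were below the lowest ARID1B library. The ratio of the means was 1.40 and the log2 change 0.31 (SE 0.12, limma adjusted p = 0.451). POLD3, an accessory subunit of polymerase delta, stood at 1.71, 1.84 and 1.69 FPKM with the vector and at 2.37, 2.21 and 2.47 FPKM with ARID1B. Its groups did not overlap either, and its change of 0.29 (SE 0.088, limma adjusted p = 0.37) missed the threshold. The other 4 genes of this role, RFC2 (clamp loading), PRIM1 (primase), RPA2 (single-strand DNA binding) and DSCC1 (an alternative clamp loader), had log2 changes of 0.00, 0.29, -0.06 and 0.03, and their groups overlapped. Over the role, summed RPM were 154, 335 and 181 in vector and 236, 181 and 222 in ARID1B libraries.

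Checkpoint and repair genes had the highest median log2 change of the 6 roles, 0.32 over the 7 tested, beside 0.08 over all members tested, a difference between roles that was not tested. BRIP1, the helicase partner of BRCA1, stood at 1.27, 1.32 and 1.19 FPKM in vector and at 1.96, 1.74 and 2.21 FPKM in ARID1B libraries. Every ARID1B library exceeded every vector library, and vector Rep2 lay beside the other vector libraries. At a ratio of means of 1.56 and a log2 change of 0.39 (SE 0.097), BRIP1 had the smallest adjusted p of the 40 members, 0.306 from limma. USP1, which removes ubiquitin from PCNA and FANCD2, stood at 4.92, 5.30 and 4.84 FPKM with the vector and at 6.49, 5.97 and 7.35 FPKM with ARID1B. Again the groups did not overlap (ratio of means 1.32, log2 change 0.33, SE 0.11, limma adjusted p = 0.39). CLSPN encodes claspin, which passes the replication stress signal from ATR to CHK1. Its levels were 0.894, 1.96 and 0.969 FPKM in vector and 2.99, 1.15 and 2.44 FPKM in ARID1B libraries. ARID1B Rep1 and Rep3 were the highest, but vector Rep2 exceeded ARID1B Rep2, so that the largest log2 change of the 40 members, 0.47, came with an SE of 0.28 (limma adjusted p = 0.607).

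A pair of repair genes did not pass the filter on low values, and their values come from a fit without it. BLM, the Bloom syndrome helicase, stood at 0.340, 0.957 and 0.393 FPKM in vector and at 0.945, 0.653 and 0.925 FPKM in ARID1B libraries (log2 change 0.25, SE 0.18). RAD51AP1, which acts in repair of DNA breaks, stood at 0.531, 1.19 and 0.591 FPKM with the vector and at 1.13, 0.785 and 1.21 FPKM with ARID1B (log2 change 0.22, SE 0.18). In both, all ARID1B libraries were above vector Rep1 and Rep3, and vector Rep2 reached the level of the higher ARID1B libraries. TIPIN (fork protection), EXO1 (a 5′ exonuclease), DTL (the adaptor that targets CDT1 for destruction) and UNG (uracil removal) had log2 changes of 0.12, 0.30, 0.32 and -0.11, all with overlapping groups. Without vector Rep2 groups did not overlap for 6 of the 7 tested genes of this role, all higher with ARID1B (18.8% of all genes), the exception being UNG.

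Chromatin and histone supply genes package newly made DNA. SLBP, the stem-loop binding protein of histone mRNAs, was the most abundant of them, at 10.7, 16.2 and 11.3 FPKM in vector and 13.6, 12.9 and 13.8 FPKM in ARID1B libraries. The ARID1B libraries were close to each other and above vector Rep1 and Rep3 (log2 change 0.10, SE 0.17, limma adjusted p = 0.836). CASP8AP2, also known as FLASH, a factor of histone mRNA processing, stood at 1.95, 1.07 and 1.68 FPKM with the vector and at 2.08, 2.12 and 2.13 FPKM with ARID1B. It was the only member for which vector Rep2 was well under the other vector libraries, at a ratio of 0.592, and its groups did not overlap. Its log2 change of 0.29 (SE 0.14, limma adjusted p = 0.534) was 0.15 without vector Rep2. ATAD2, a bromodomain ATPase, stood at 2.31, 3.68 and 2.52 FPKM in vector and at 4.97, 2.87 and 4.75 FPKM in ARID1B libraries. ARID1B Rep1 and Rep3 were above all others, and ARID1B Rep2 was below vector Rep2 (log2 change 0.43, SE 0.22, limma adjusted p = 0.548). CENPU, a subunit of the inner kinetochore, stood at 2.05, 7.18 and 2.92 FPKM with the vector and at 5.46, 3.47 and 5.23 FPKM with ARID1B. Its libraries were ordered as for CDC6, and its change was 0.29 (SE 0.38) with all libraries and 0.71 (SE 0.20, limma adjusted p = 0.113) without vector Rep2. The other 7 genes of the role were CHAF1B and NASP (histone chaperones), UHRF1, HELLS and CDCA7 (maintenance of DNA methylation and chromatin remodeling), WDR76 and UBR7. Their log2 changes ran from -0.08 (UHRF1) to 0.15 (WDR76), and all 7 had overlapping groups.

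Of the E2F factors and E-type cyclins, E2F1 and CCNE1 passed the filter. E2F1, the activator most closely tied to S phase entry, stood at 2.28, 12.6 and 3.71 FPKM in vector and at 6.85, 3.31 and 5.53 FPKM in ARID1B libraries. Vector Rep2 was 4.20 times the mean of the other vector libraries, the highest such ratio among the 45 members, and the vector libraries enclosed all ARID1B values (log2 change 0.03, SE 0.54, and 0.62, SE 0.29, limma adjusted p = 0.262, without vector Rep2). CCNE1, one of the cyclin E genes, stood at 1.06, 2.46 and 1.34 FPKM with the vector and at 1.72, 1.24 and 1.66 FPKM with ARID1B. The vector libraries again enclosed the ARID1B libraries (log2 change -0.01, SE 0.21).

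The other 3 genes of this role lay under 1 FPKM on average, and the fit without a filter was used. E2F8, an atypical E2F that represses transcription, stood at 0.208, 0.356 and 0.232 FPKM in vector and at 0.673, 0.413 and 0.573 FPKM in ARID1B libraries. Its groups did not overlap, at a ratio of means of 2.09 (log2 change 0.29, SE 0.086, limma adjusted p = 0.461), which made 6 of the 45 members without overlap in that fit, all higher with ARID1B (6.41% of all genes). CCNE2, the other cyclin E gene, stood at 0.522, 0.933 and 0.548 FPKM with the vector and at 1.23, 0.809 and 1.29 FPKM with ARID1B. Its order differed in that ARID1B Rep1 and Rep3 exceeded vector Rep2, which exceeded ARID1B Rep2 (log2 change 0.34, SE 0.15). E2F2, a further activator, was the lowest of the 45 members, at 0.121, 0.227 and 0.151 FPKM in vector and 0.304, 0.181 and 0.284 FPKM in ARID1B libraries. The groups overlapped through vector Rep2 (log2 change 0.11, SE 0.054), and vector Rep3 held 55 reads of E2F2, the fewest of any member in any library.

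How high a member stood in vector Rep2 varied with its base composition. Across 44 members with a transcript in the reference, which share the same libraries and are not independent, the ratio of vector Rep2 to the mean of Rep1 and Rep3 had a Spearman's rho of 0.45 with GC content (0.36 across all genes tested) and of -0.27 with transcript length (-0.47). Across the 39 of them tested, the log2 change of ARID1B against vector correlated with GC content at -0.68 (-0.55 across all genes) and with length at 0.52 (0.40). BRIP1, USP1, POLA1, POLD3 and CASP8AP2 had GC contents of 37.5%, 40.9%, 42.9%, 43.0% and 37.2%, below the median of 44.5% of the members. A correction of each library for GC content and length also removes any difference between the groups that varies with either, whatever its source. After this correction, groups overlapped for all 39 members that could be corrected. The groups of 8.7% of all genes did not overlap and were higher with ARID1B. The log2 change of BRIP1 was then 0.19, of POLA1 0.16, of POLD3 0.19, of USP1 0.21 and of CASP8AP2 0.08, so each was smaller but still positive. With the same correction and without vector Rep2, groups did not overlap for 22 of 39 members, all higher with ARID1B (21.8% of all genes), and 38 of the 39 changes were positive (49.1%). Among members with a promoter entry, E2F letters were found in 13 of the 20 (65%) that stood at least 2 times higher in vector Rep2 and in 10 of the other 16 (62.5%).

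**Figure D4:**
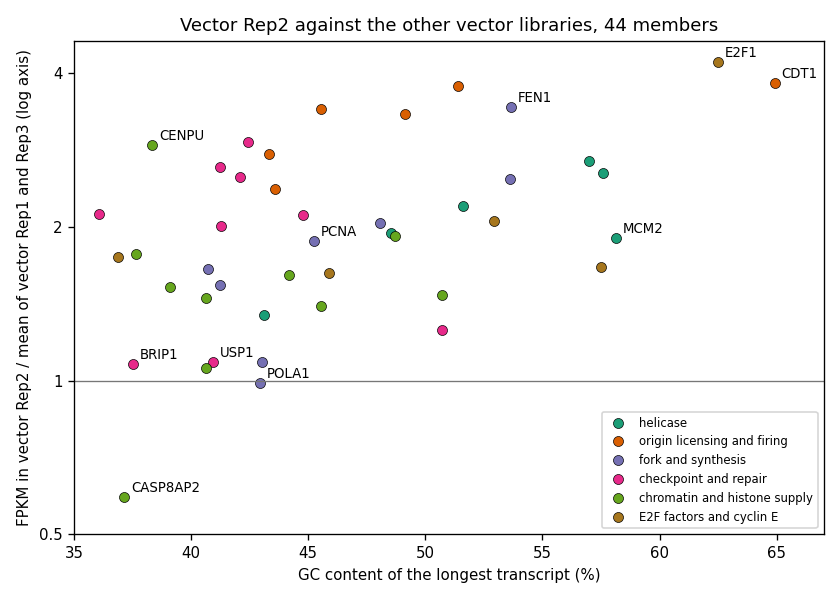
Ratio of FPKM in vector Rep2 to the mean of vector Rep1 and Rep3 (log axis) against the GC content of the longest transcript for 44 members (points, colored by role). E2F1, CDT1 and FEN1 combine a high GC content with a high ratio, and CASP8AP2, at 37.2% GC, is the lowest at 0.592. Other members depart from this, such as CENPU (38.3% GC, ratio 2.89) and MCM2 (58.1% GC, ratio 1.90).

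Further genes of the same pathways, taken from lists, were read in the same fits. The other replication machinery comprised 43 genes, among them subunits of the origin recognition complex, polymerases and clamp loaders, of which 35 were tested. None passed the threshold, 21 had a positive and 14 a negative log2 change, and the median was 0.03 (0.20 without vector Rep2). Groups did not overlap for TOPBP1 and ORC3, which were higher with ARID1B (9.44% of all genes), nor for CHTF8 and PRIM2, which were lower (11.1%). WDHD1, a fork scaffold protein, had the smallest p of the list, with 1.49, 2.09 and 1.66 FPKM in vector and 2.66, 2.08 and 2.68 FPKM in ARID1B libraries. ARID1B Rep2 was just under vector Rep2 (log2 change 0.34, SE 0.13, limma adjusted p = 0.438). CHTF8, a clamp loader subunit, came next at 4.11, 5.94 and 4.41 FPKM with the vector and 3.97, 3.01 and 3.74 FPKM with ARID1B. All its ARID1B libraries were below the vector libraries (log2 change -0.34, SE 0.16, limma adjusted p = 0.51).

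The 9 genes of deoxynucleotide supply set the level of the building blocks of DNA, and their sum had the order of libraries seen in the sum of the members. Their summed RPM were 310, 662 and 357 in vector and 555, 343 and 503 in ARID1B libraries, and vector Rep2 was the highest library for 6 of the 9. SAMHD1, which breaks deoxynucleotides down, ran the other way, from 8.68 FPKM in vector Rep1, its highest library, to 5.13 FPKM in vector Rep2, its lowest. None of the 9 passed the threshold, with 6 changes positive and 3 negative and a median of 0.11 (0.31 without vector Rep2). DCK, deoxycytidine kinase, had the smallest p, at 3.57, 4.04 and 3.35 FPKM with the vector and 4.08, 3.91 and 4.77 FPKM with ARID1B. Vector Rep2 exceeded ARID1B Rep2 (log2 change 0.17, SE 0.12, limma adjusted p = 0.642). RRM2, the regulated subunit of ribonucleotide reductase, came next at 4.75, 19.0 and 7.07 FPKM with the vector and 16.7, 8.67 and 15.5 FPKM with ARID1B. Its groups overlapped (log2 change 0.54, SE 0.49, limma adjusted p = 0.724).

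**Figure D5:**
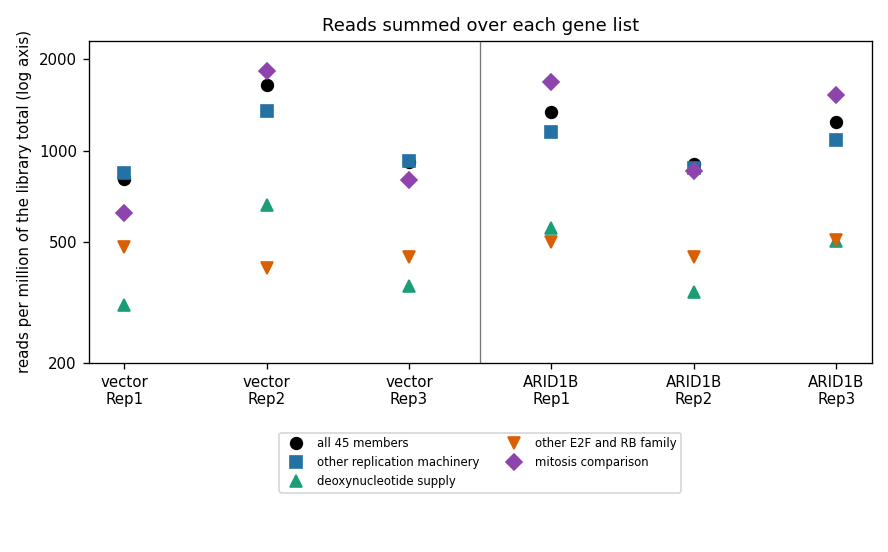
Reads per 1000000 of the library total (log axis), summed over the 45 members and over 4 further gene lists, in each of the 6 libraries (vector left of the line). For the members the sum is highest in vector Rep2, at 1641, and lowest in vector Rep1, at 808, and only the list of other E2F and RB family genes is lowest in vector Rep2.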

How the data were processed

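RNA-seq of 6 IMR90 libraries was analysed, grouped by the sample labels into 3 vector and 3 ARID1B libraries. The authors deposited FPKM values for 57232 genes. The submitters' processing notes list the genome build hg19 with DESeq2, HTSeq 0.5.3p9 and TopHat2 2.0.11. The role of each is not given in the sources used here. The steps between low FPKM values gave the library totals and the reads of each gene. For 100% of the 10416 genes tested, these were whole within 0.002 reads. Counting error is small at a library median of 2283 to 3352.5 reads per gene tested. It is larger for weakly expressed members, which held as few as 55 reads in a library. The reads are used only for sums and for voom.

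Genes averaging 1 FPKM or more were tested on log2(FPKM + 1) in limma 3.58.1 under R 4.3.3 (variance trend), with Benjamini-Hochberg adjustment over all genes tested and a threshold of 0.05. The scripts were tested on simulated data. GC content and length came from GENCODE release 29 (GRCh38, 97.9% of genes tested matched, UHRF1 not matched), and the correction used natural splines with 5 degrees of freedom each. Promoters came from RefSeq (GRCh38.p14). Both references differ from the build of the files, and no coordinates were taken from the files. Of symbols on 2 rows (CHTF8 and RBL1), the row with the higher mean was used. PECAM1, an endothelial marker, was not analysed here. Other steps ran in Python 3.11.15 with matplotlib 3.10.9 and scipy 1.17.1.

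Members, lists and alternatives were chosen with earlier results of these data known. Members given for every library were, in each role, those without overlap of the groups, with the highest mean, the 2 smallest p and the widest range, all members under 1 FPKM, and E2F1, CCNE1, PCNA and MCM2. Of the other lists, the 2 smallest p and MKI67 were given. Alternatives were each library or both Rep3 left out, GC and length correction, voom, a replicate block, quantile normalization or median-ratio rescaling, a fit with no trend, a pseudocount of 0.1, and a minimum of 5 FPKM or none.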

Additional observations from a re-analysis of the deposited data

How the results depend on the processing

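No member passed the threshold under any alternative, the lowest adjusted p being 0.0647 from limma (GC and length correction without vector replicate 2, added after seeing the data). The count of members without overlap, 5, was 1 of the 12 tested at a mean of at least 5 FPKM, 0 under GC and length correction, 22 under that correction without vector replicate 2, and 5 to 21 with 1 library left out (10 without ARID1B replicate 2). The median log2 change of the members, 0.08, was -0.02 with both Rep3 left out, and -0.03 to 0.32 with 1 library left out. Of 229 values of 22 single genes under the other alternatives, 217 kept their direction and side of the threshold and 12 turned. With both Rep3 left out, MCM2 (-0.15), GMNN (-0.10), FEN1 (-0.16) and E2F1 (-0.20) turned. GC and length correction turned MCM7 (0.00094), CDT1 (0.042) and CCNE1 (0.10), and together with leaving out vector replicate 2 also MCM7 (0.33), CDT1 (0.44), PCNA (0.11) and CCNE1 (0.22). CCNE1 also turned with a pseudocount of 0.1 (0.0044). With 1 library left out, 10 genes turned, and the ranges were -0.17 to 0.21 for CCNE1, -0.51 to 0.29 for CDT1, -0.0033 to 0.71 for CENPU, -0.40 to 0.62 for E2F1, -0.36 to 0.58 for FEN1, -0.16 to 0.40 for GMNN, -0.17 to 0.27 for MCM2, -0.42 to 0.26 for MCM7, -0.33 to 0.16 for PCNA and -0.0099 to 0.27 for SLBP. The cause was not tested. Members under 1 FPKM were fitted only without the filter.

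Replicate numbers did not pair the libraries: deviations from the group means correlated at -0.46, -0.43 and -0.17 for numbers 1, 2 and 3, and no vector library correlated best with its own number. With a replicate block the count of members past the threshold stayed at 0, the median at 0.08 and the smallest adjusted p from limma was 0.811. Over all genes, 3 were called higher and 0 lower in the main test, 125 and 199 without vector replicate 2.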

Other observations

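Mitosis genes, read for comparison because they act after S phase, were, like the replication genes, highest in vector Rep2 and lowest in vector Rep1 when summed, and spanned a wider range. Summed over 25 genes, RPM were 625, 1821 and 801 in vector Rep1, Rep2 and Rep3 and 1680, 856 and 1523 in ARID1B Rep1, Rep2 and Rep3. None of the 25 passed the threshold of limma (0.0288% of all genes higher), 20 had a positive and 5 a negative log2 change, and the median was 0.35, beside 0.08 for the replication genes. Without vector Rep2 all 25 were positive with a median of 0.69, and groups did not overlap for 16, all higher with ARID1B (18.8% of all genes). ECT2, an activator of RhoA in cytokinesis, had the smallest p, at 3.67, 3.96 and 3.51 FPKM with the vector and 6.16, 4.47 and 6.73 FPKM with ARID1B (log2 change 0.51, SE 0.15, limma adjusted p = 0.351). Its groups did not overlap, and it was the only one of the 25 of which this held with all libraries (9.44% of all genes higher). TOP2A, topoisomerase II alpha, came next at 9.54, 15.6 and 10.6 FPKM with the vector and 22.9, 13.3 and 22.0 FPKM with ARID1B (log2 change 0.65, SE 0.26, limma adjusted p = 0.465). MKI67, which encodes the proliferation marker Ki-67, stood at 2.83, 6.49 and 3.39 FPKM with the vector and at 9.73, 3.52 and 8.14 FPKM with ARID1B, so that ARID1B Rep2 lay beside vector Rep3 (log2 change 0.61, SE 0.39, limma adjusted p = 0.637).

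As a sum, other E2F and RB family genes did not show this order. Their summed RPM were 482, 410 and 448 in vector and 500, 447 and 508 in ARID1B libraries, and their median ratio of vector Rep2 to the mean of Rep1 and Rep3 was 0.991. Single genes went either way. Vector Rep2 was the highest library for 2 of the 10 tested, E2F4 and E2F7, and the lowest for E2F3, TFDP2, RB1 and RBL2. Its ratio to the mean of Rep1 and Rep3 was 2.2 for E2F7 and 0.339 for RBL2. Of 14 genes 10 were tested and none passed the threshold, with 7 positive and 3 negative changes and a median of 0.11. E2F3, an activator E2F, had the smallest p, at 4.30, 3.39 and 3.92 FPKM with the vector and 5.43, 5.45 and 5.71 FPKM with ARID1B (log2 change 0.43, SE 0.11, limma adjusted p = 0.313). It was the only gene of this list without overlap of the groups (9.44% of all genes higher). After GC and length correction the E2F3 groups still did not overlap (8.7% of all genes higher), at a log2 change of 0.32 (limma adjusted p = 0.213). With that correction and without vector Rep2, a setting added after seeing the data, the adjusted p of E2F3 from limma was 0.047. In that setting 1.87% of all genes were called higher. RB1, the retinoblastoma protein that restrains E2F factors, came next at 8.07, 3.73 and 6.85 FPKM with the vector and 7.86, 8.59 and 9.24 FPKM with ARID1B. Vector Rep2 was the lowest library, and vector Rep1 lay within the ARID1B range (log2 change 0.46, SE 0.25, limma adjusted p = 0.573).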
